A study of Danio rerio with 12 samples.

Results

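The genes described here are 44 genes of the cell division cycle, chosen by symbol as known replication and mitosis genes. They were chosen with earlier results of these data known, and were looked up in the expression table. All 44 were present, once each, among the 25011 genes of the table. By their textbook roles 18 act in S phase, where DNA is copied, 21 act in mitosis, where the copied chromosomes are separated, and 5 are the G1 and S phase cyclins and kinases that start the cycle. The question put to them was whether S phase genes and mitosis genes differed between dnmt3ba morphant and control cells, and whether both classes did so to the same extent.

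The cells were haemogenic endothelium from zebrafish trunks at 36 hours post-fertilisation, sorted as positive for both reporters of the transgenic background kdrl:mCherry and runx1:en-GFP, which morphants and controls shared. Morphants (labelled dnmt3ba knockdown) had received a dnmt3ba morpholino, an antisense oligonucleotide, and controls are labelled WT. The labels do not say whether controls were injected, and effects of injection and of knockdown cannot be told apart. Each library came from about 5000 sorted cells pooled from as many embryos as were needed, with 3 biological replicates in each group. Total estimated counts ranged from 24397076 to 25132656 over the 6 libraries. dnmt3ba itself, a de novo DNA methyltransferase gene, read 405, 673 and 600.2 CPM in morphants 1 to 3, against 499, 789 and 442 CPM in controls 1 to 3 (log2 fold change -0.044, SE 0.29, edgeR adjusted p = 0.95), and a morpholino that blocks translation or splicing need not lower the count of its target. Control 2 stood apart on the first principal component of log2 CPM (38.6% of variance), at 144, against -64.9 to -4.83 for the other 5. The 15 haemogenic endothelial markers examined, kdrl and runx1 among them, were all detected in every library. So were all erythroid, epidermal, myeloid and neural markers examined and all skeletal muscle markers but myog, so detection alone does not identify the cells.

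A chromosome is copied from origins, which the origin recognition complex marks and onto which Cdc6 and Cdt1 load the ring-shaped Mcm helicase. In S phase the GINS proteins and Mcm10 help turn the loaded helicase into a moving fork, PCNA clamps the polymerases to DNA, and ribonucleotide reductase and thymidylate synthase supply nucleotides. In mitosis, cyclin B with Cdk1 drives chromosome condensation and spindle assembly, Polo and Aurora kinases organise the spindle, the checkpoint holds anaphase until every chromosome is attached, and separase then cuts the sister chromatids apart. In the trunk vessels of the embryo, haemogenic endothelium and the blood precursors that leave it both divide.

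Per unit of gene length the S phase machinery was among the most abundant of the set. In TPM, the clamp gene pcna was the highest of the 44, at 685 ± 70.8 TPM in morphants and 949.5 ± 298 TPM in controls (SD, n = 3 each), which placed its mean over the 6 libraries at the 99.0th percentile of tested genes. Next by mean TPM came rrm1, mcm2, mcm7 and the Aurora kinase gene aurkb. The 6 subunits of the Mcm2 to Mcm7 ring, which the helicase holds in equal numbers, lay within 1.58-fold to 1.94-fold of one another in each library (highest over lowest TPM), and pcna stood 4.23-fold to 5.74-fold above their mean. The lowest S phase gene by mean TPM was mcm10. Mitosis genes ran from aurkb at 200.5, 188 and 186 TPM in morphants 1 to 3, against 165, 221 and 213 TPM in controls 1 to 3, to the separase gene espl1 at 2.81 ± 0.105 TPM in morphants and 5.16 ± 2.1 TPM in controls (SD, n = 3 each). The lowest member was cdk4, a kinase partner of cyclin D, listed at 1.55 ± 0.142 TPM in morphants and at 1.09, 0 and 3.43 TPM in controls 1 to 3. TPM values serve here to set genes against each other, and the group comparisons below use TMM-normalised CPM (counts scaled to a common library size, with edgeR's trimmed mean of M-values between libraries).

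**Figure D1:**
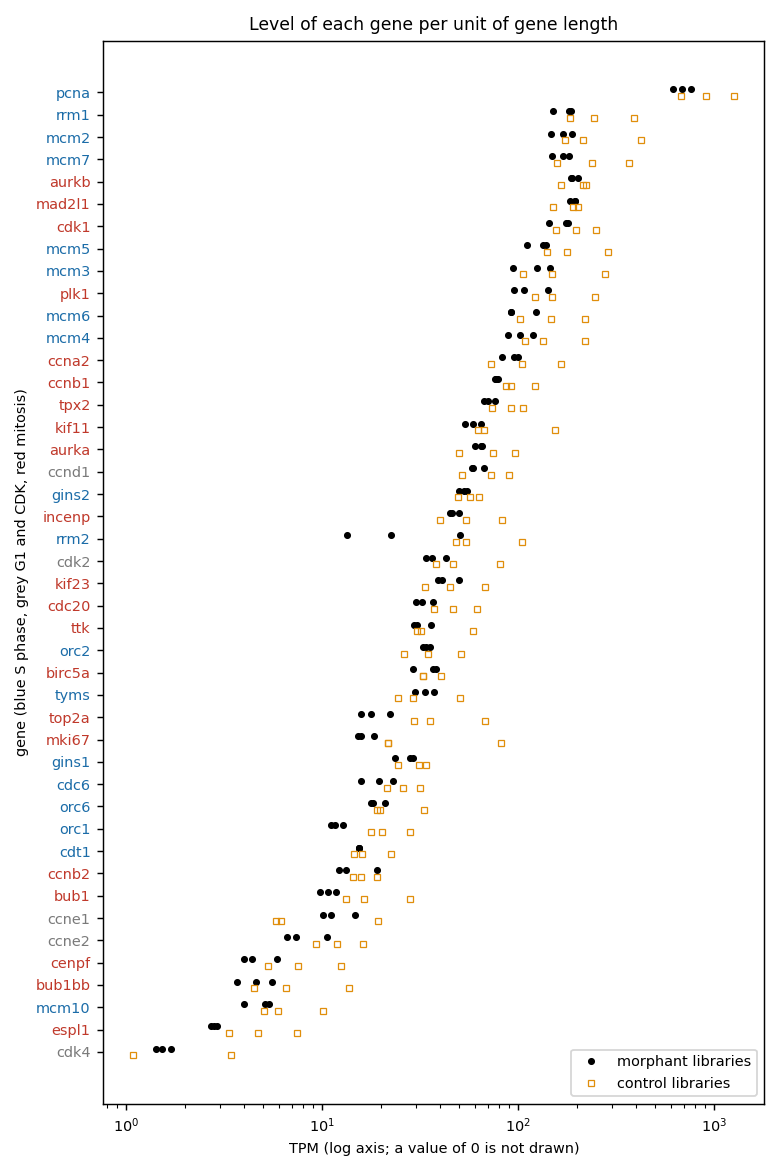
TPM (log axis) of each of the 44 genes in the 3 morphant libraries (filled circles) and the 3 control libraries (open squares), ordered by mean TPM. pcna is highest and cdk4 lowest; control 2, often the rightmost square, is far above the other libraries for mki67.

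No replication or mitosis gene passed the all-gene test. With edgeR's quasi-likelihood test, 0 of 44 were called at a Benjamini-Hochberg adjusted p under 0.05 over 18846 tested genes, where 0.0106% of all genes were called lower and 0.0531% higher in morphants. The direction was nonetheless nearly uniform, with a negative log2 fold change in 40 of 44 (90.9%), against 52.4% of all tested genes. At an unadjusted p under 0.05, 17 of the 44 (38.6%) were lower in morphants and 0 higher, against 9.46% of all genes lower and 7.58% higher. In 20 of 44 (45.5%) every morphant library lay below every control library, which held for 11.9% of all genes, and in 0 did every morphant lie above, against 12.4%. The median log2 fold change of the 44 was -0.41, against -0.036 over all genes. The 44 genes share the same 6 libraries and are not independent, so these shares are descriptions and carry no test. The list was also chosen with earlier results of these data known, so a larger share than over all genes is not independent evidence. In RNA from sorted pools, fewer dividing cells and less of these transcripts per cell cannot be told apart.

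The calls differed between tools. DESeq2 called 4 of 44 (9.09%) lower and 0 higher (3.35% of all genes lower and 3.16% higher): top2a, orc1, bub1 and espl1, with DESeq2 adjusted p of 0.001, 0.0033, 0.028 and 0.045. limma-voom called 0 of 44 (0.0159% of all genes lower and 0.0478% higher). The count of 17 at an unadjusted p moved with the libraries used. The share of all genes lower at that p moved as well. Dropping morphant 1 left 7 members (4.38% of all genes), dropping morphant 2 left 9 (10.2% of all genes) and dropping morphant 3 left 9 (5.17%). Dropping control 2 left 10 (9.94%), dropping control 3 left 8 (8.3%), and dropping control 1 gave 20 (7.75%). Without control 2 and morphant 2 together it was 9 (20.5%, against 14% of all genes), and edgeR then called 2 members lower, top2a and rrm2, of 44 (4.55%, against 4.54% of all genes lower and 2.56% higher).

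**Figure D2:**
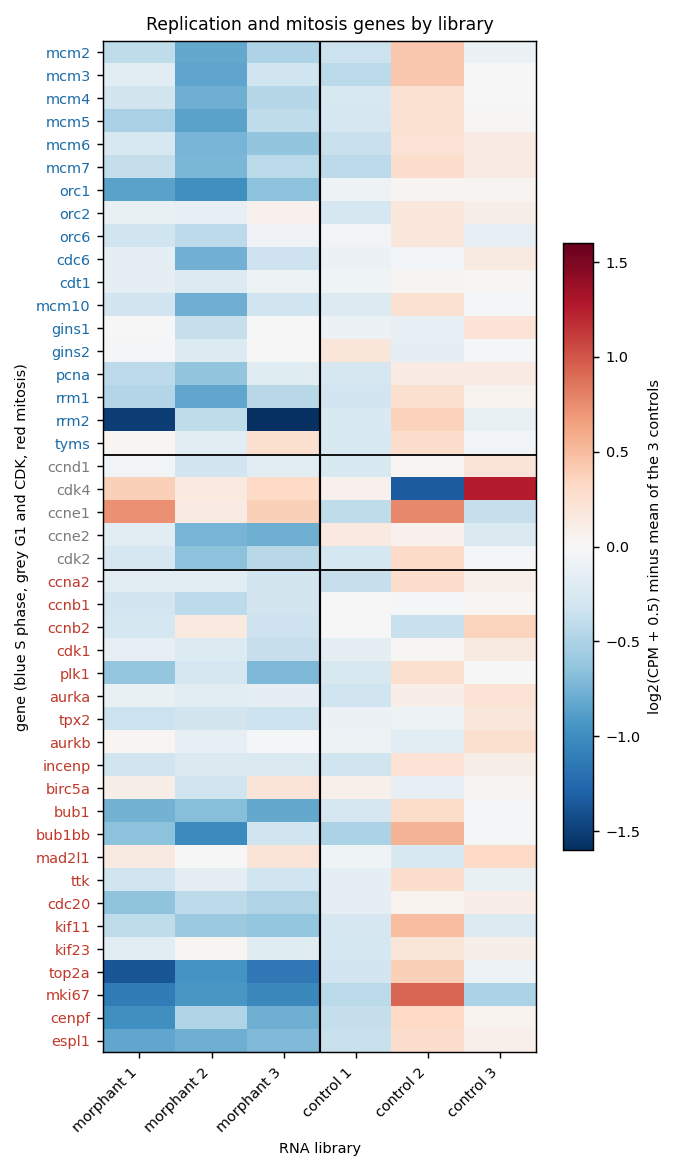
Each gene (rows, grouped by role) in each RNA library (columns, morphants left), as log2(CPM + 0.5) minus the mean of the 3 controls; blue is lower and red higher than that mean. Morphant columns are mostly blue, control 2 is the reddest column, and morphant 2 is darkest in the upper S phase rows.

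Markers of cell types other than the sorted one also differed between the libraries. Of 20 skeletal muscle markers 20 had a negative log2 fold change (median -1.76), and of 18 genes listed as erythroid 17 (-1.57). Of 15 epidermal markers 12 were negative (-1.27) and of 14 neural markers 14 (-0.88). In the 6 libraries edgeR called 0 on any of these lists. At an unadjusted p under 0.05, 14 muscle, 13 erythroid, 8 epidermal and 3 neural markers were lower, against 9.46% of all genes. Without control 2 and morphant 2, edgeR called 20 muscle, 2 erythroid, 1 epidermal and 3 neural markers lower, with medians of -2.70, -1.94, -0.57 and -1.10 in that order. It called 1 gene of the erythroid list, spi1a, higher. Of all genes, 4.54% were then called lower and 2.56% higher. spi1a read 241, 77.0 and 194 CPM in morphants 1 to 3, against 93.6, 156 and 44.3 CPM in controls 1 to 3. On the myeloid list, spi1b read 240, 98.1 and 293 CPM in morphants 1 to 3, against 168, 241 and 84.9 CPM in controls 1 to 3. Both genes were lowest in control 3, whereas the globin genes of the erythroid list were lowest in morphant 3. In the 6 libraries spi1a was the only gene of the erythroid list with a positive log2 fold change (0.80), and its place on that list is uncertain. Without control 2 alone edgeR called 8 muscle markers lower, against 46 of all 19462 genes tested. Summed over each list, muscle markers ranged from 9312 to 20395 CPM in morphants and from 11112 to 71426 in controls. Erythroid markers ranged from 946 to 2622 CPM in morphants and from 2549 to 8295 in controls. Epidermal markers ranged from 3550.2 to 4332 CPM in morphants and from 5712 to 7782 in controls, and neural markers from 129 to 303 in morphants and from 280.3 to 380.0 in controls. No marker was at 0 in every library, and myog alone was at 0 in some. Control 2, with the highest S phase and mitosis means, had the lowest muscle (11112 CPM), erythroid (2549 CPM) and neural (280.3 CPM) sums of the controls and the highest myeloid sum of the controls (13494 CPM, against 8298 and 5295 in controls 1 and 3). Myeloid markers had a median of 0.15 with 0 of 14 at an unadjusted p under 0.05. Their median was 0.64 without control 2, and 0.95 without control 2 and morphant 2, with 11 of 14 then higher at that p (11.7% of all genes). Haemogenic endothelium markers split, with 10 positive and 5 negative log2 fold changes (median 0.43). With an unadjusted p under 0.05, 5 were higher (kdrl among them) and 4 lower (runx1 among them), against 7.58% and 9.46% of all genes. kdrl read 516, 88.2 and 519 CPM in morphants 1 to 3, against 97.4, 184 and 74.4 CPM in controls 1 to 3, so its groups overlapped. Those of runx1 did not (11.0, 16.3 and 13.5 CPM against 35.1, 39.4 and 22.4 CPM, in the same order). Without control 2 and morphant 2, edgeR called 2 of the haemogenic endothelium markers higher and 1 lower (2.56% and 4.54% of all genes). The sums of the haemogenic endothelium markers lay between 4258 and 4732 CPM in morphants and between 2805 and 3909 CPM in controls. Control 2 had the lowest of these sums over the 6 libraries. The part of these cell types in the levels of replication and mitosis genes was not tested.

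Among the S phase genes, the Mcm helicase subunits had similar values. None was called, and all 6 had negative log2 fold changes, between -0.60 for mcm2 and -0.46 for mcm3. At an unadjusted edgeR p under 0.05, 5 of the 6 were lower (9.46% of all genes), with adjusted p from 0.23 to 0.29. mcm2 (gene ID 192338) read 399, 299 and 373 CPM in morphants 1 to 3, against 416, 711 and 496 CPM in controls 1 to 3 (log2 fold change -0.60, SE 0.24, edgeR adjusted p = 0.28). Its groups did not overlap, morphant 2 was the lowest library and control 2 much the highest. The same pair of libraries set the range throughout the ring: control 2 was the highest of all 6 libraries and morphant 2 the lowest of the morphants for 6 of 6 subunits. Over all tested genes, control 2 was the highest library for 25.8% and morphant 2 the lowest morphant for 37.4%. Without these 2 libraries the log2 fold changes of the subunits lay between -0.34 and -0.039. Since these 2 libraries were the extremes, leaving them out moves the values toward 0 by construction, and the shift carries no test.

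Of the genes that mark and load origins, orc1 showed the clearest difference. orc1 (gene ID 554509), the large ATPase subunit of the origin recognition complex, read 23.8, 21.7 and 27.4 CPM in morphants 1 to 3, against 41, 44.9 and 44.9 CPM in controls 1 to 3. All 3 morphants were lower than all 3 controls, and within each group the libraries lay close together (log2 fold change -0.84, SE 0.18, edgeR adjusted p = 0.13). Its log2 fold change was -0.74 without control 2 and morphant 2 and -0.78 after a correction for gene length, described below. The other subunits differed less, at -0.074 for orc2 (edgeR adjusted p = 0.87) and -0.27 for orc6 (edgeR adjusted p = 0.55). After the length correction they were at -0.23 and -0.44. For the loading factors the log2 fold changes were -0.41 for cdc6 and -0.15 for cdt1, with no overlap between groups in either gene although neither had an unadjusted edgeR p under 0.05. As counted, helicase activation genes were near their controls in the case of gins1 (-0.13, counts not all whole) and gins2 (-0.086), and mcm10 stood at -0.48. After the length correction the values were -0.31 for gins1, -0.29 for gins2 and -0.46 for mcm10. For cdc6 and cdt1 they were then -0.46 and -0.15.

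The clamp and nucleotide genes gave both the smallest and the largest S phase differences. pcna (gene ID 30678) read 656, 568 and 764 CPM in morphants 1 to 3, against 729.6, 962 and 962 CPM in controls 1 to 3 (log2 fold change -0.42, SE 0.21, edgeR adjusted p = 0.35), and morphant 3 lay above control 1. rrm1 (gene ID 30740), the large subunit of ribonucleotide reductase, read 363, 281 and 369 CPM in morphants 1 to 3, against 404, 599 and 521 CPM in controls 1 to 3 (log2 fold change -0.59, SE 0.21, edgeR adjusted p = 0.24). Its groups were separated by a narrow gap between morphant 3 and control 1. rrm2 (gene ID 30733), the small subunit, which limits the enzyme in S phase, read 31.7, 68.6 and 19.7 CPM in morphants 1 to 3, against 76.6, 117 and 83.9 CPM in controls 1 to 3 (log2 fold change -1.21, SE 0.44, edgeR adjusted p = 0.24). Morphants 1 and 3 were far below every control, while morphant 2 came close to control 1, and without control 2 and morphant 2 the log2 fold change was -1.64 (edgeR adjusted p = 0.015). The estimated counts of rrm2 were not whole numbers, and the labels do not say how such reads were assigned, so its level, like that of gins1, is less certain than that of members with whole counts. tyms, thymidylate synthase, was at 0.03, the only S phase gene with a positive log2 fold change in the 6 libraries as counted.

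As counted, the G1 and S phase cyclins and kinases showed 4 negative log2 fold changes of 5, none at an unadjusted edgeR p under 0.05, with a median of -0.19. ccnd1 (gene ID 30222), cyclin D1, read 202, 168 and 185 CPM in morphants 1 to 3, against 176, 214 and 241 CPM in controls 1 to 3 (log2 fold change -0.19, SE 0.18, edgeR adjusted p = 0.63). The groups overlapped, and the sign turned to 0.11 after the correction for gene length. cdk2 (gene ID 406715), the kinase that pairs with cyclin E and cyclin A, read 45.4, 34.6 and 40.2 CPM in morphants 1 to 3, against 45.4, 68 and 54.1 CPM in controls 1 to 3 (log2 fold change -0.48, SE 0.21, edgeR adjusted p = 0.3), with morphant 1 level with control 1. The cyclin E genes pointed in opposite directions. ccne1 (gene ID 30188) read 21, 13.7 and 16.5 CPM in morphants 1 to 3, against 9.36, 21.6 and 9.62 CPM in controls 1 to 3 (log2 fold change 0.33, SE 0.38, edgeR adjusted p = 0.69), with control 2 above every morphant and controls 1 and 3 below every morphant. Without control 2 and morphant 2 its log2 fold change was 0.99 (edgeR adjusted p = 0.066), the only member then higher at an unadjusted p under 0.05 (11.7% of all genes). ccne2 was at -0.57 (edgeR adjusted p = 0.32). After the length correction cdk2 and ccne2 were both at -0.63 and ccne1 at 0.22. The unadjusted edgeR p was then 0.042 for cdk2 and 0.047 for ccne2, where 7.32% of all genes were lower under 0.05. cdk4 was too low to compare, at 23 to 29 reads in morphants and 19, 0 and 59 reads in controls 1 to 3.

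In mitosis the role with the lowest median as counted was the mitotic chromosome itself, at -0.999 over 4 genes, and at -0.50 after the correction for gene length. All 4 of these had groups that did not overlap and an unadjusted edgeR p under 0.05. Over all genes, every morphant lay below every control in 11.9%, and 9.46% were lower at that p. All 4 are longer than 4 kb, a length class in which the median of all tested genes was -0.46. top2a (gene ID 323733), the topoisomerase that untangles sister chromatids, read 64, 85.3 and 74.9 CPM in morphants 1 to 3, against 134, 217 and 158 CPM in controls 1 to 3. The highest morphant was well below the lowest control (log2 fold change -1.18, SE 0.23, edgeR adjusted p = 0.12), and without control 2 and morphant 2 it was called lower (log2 fold change -1.07, edgeR adjusted p = 0.018). mki67 (gene ID 564521), the Ki-67 protein that coats mitotic chromosomes and is a common marker of dividing cells, read 72.4, 82.9 and 77.3 CPM in morphants 1 to 3, against 117, 303 and 112 CPM in controls 1 to 3 (log2 fold change -1.19, SE 0.39, edgeR adjusted p = 0.22). Control 2 read more than the other 2 controls together; without it the log2 fold change was -0.56. cenpf (gene ID 497403), a kinetochore protein, read 26.7, 38 and 30.8 CPM in morphants 1 to 3, against 40.7, 66.6 and 55.3 CPM in controls 1 to 3 (log2 fold change -0.77, SE 0.24, edgeR adjusted p = 0.2). espl1 (gene ID 797406), separase, read 14.1, 14.6 and 15.3 CPM in morphants 1 to 3, against 19.7, 30.9 and 27 CPM in controls 1 to 3 (log2 fold change -0.82, SE 0.23, edgeR adjusted p = 0.18). For both genes the morphants lay below all controls, with control 1 nearest.

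The spindle checkpoint genes were uneven. bub1 (gene ID 100307076), a kinase at unattached kinetochores, read 34.2, 36.3 and 32.8 CPM in morphants 1 to 3, against 48.3, 71.7 and 57.4 CPM in controls 1 to 3 (log2 fold change -0.78, SE 0.20, edgeR adjusted p = 0.16), with the morphants tightly grouped below all controls. cdc20, the activator of the anaphase-promoting complex that the checkpoint restrains, was at -0.52 (edgeR adjusted p = 0.21), bub1bb at -0.73 (edgeR adjusted p = 0.33) and the kinase gene ttk at -0.28 (edgeR adjusted p = 0.46). For bub1bb the value was -0.23 without control 2 and morphant 2. mad2l1 (gene ID 550434), which binds Cdc20 and keeps it inactive, read 99.1, 89 and 103 CPM in morphants 1 to 3, against 85, 75.7 and 112 CPM in controls 1 to 3 (log2 fold change 0.10, SE 0.19, edgeR adjusted p = 0.83). Its groups overlapped, and its sign turned to -0.10 after the correction for gene length and to -0.015 without control 2.

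Mitotic cyclins, kinases and motors had log2 fold changes nearer to 0 than the chromosome genes as counted. After the correction for gene length the values overlapped. plk1 was at -0.57, ccnb1 at -0.47, kif11 at -0.42 and cdk1 at -0.40, against -0.32 for espl1 and -0.27 for cenpf. top2a (-0.74) and mki67 (-0.69) remained further below 0. The corrected medians were -0.50 for the chromosome genes and -0.36 for the mitotic cyclins with cdk1. They were -0.31 for plk1, aurka and tpx2, and -0.23 for kif11 and kif23. cdk1 (gene ID 80973), the kinase that drives entry into mitosis, read 159, 149 and 134 CPM in morphants 1 to 3, against 156, 176 and 192 CPM in controls 1 to 3 (log2 fold change -0.24, SE 0.16, edgeR adjusted p = 0.48), with an overlap between morphant 1 and control 1. ccnb1 (gene ID 58025), cyclin B1, read 77.7, 72.1 and 78.7 CPM in morphants 1 to 3, against 95.8, 95.1 and 99 CPM in controls 1 to 3 (log2 fold change -0.34, SE 0.15, edgeR adjusted p = 0.29); here the controls were within a few CPM of each other and all morphants lay below them. ccna2 was at -0.24 and ccnb2 at -0.17. plk1, a Polo kinase, was at -0.54 (edgeR adjusted p = 0.26) and kif11, the motor that pushes spindle poles apart, at -0.58 (edgeR adjusted p = 0.28), both with no overlap between groups. Without control 2 and morphant 2 the value was -0.54 for plk1 and -0.26 for kif11. tpx2, an activator of Aurora A, was at -0.33, its groups also separate, while aurka was at -0.17 and kif23, a motor of cytokinesis, at -0.13.

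The chromosomal passenger complex, which corrects faulty spindle attachments, showed the smallest differences of any group in mitosis as counted. aurkb (gene ID 791894), its kinase, read 151, 135 and 146 CPM in morphants 1 to 3, against 139, 131 and 176 CPM in controls 1 to 3 (log2 fold change -0.049, SE 0.17, edgeR adjusted p = 0.91), with both groups spread over the same range. birc5a, survivin, was at 0.005 (edgeR adjusted p = 0.99) and incenp, the scaffold, at -0.28 (edgeR adjusted p = 0.48). None of the 3 had an unadjusted edgeR p under 0.05, and a p that misses a threshold does not show that the groups were alike.

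**Figure D3:**
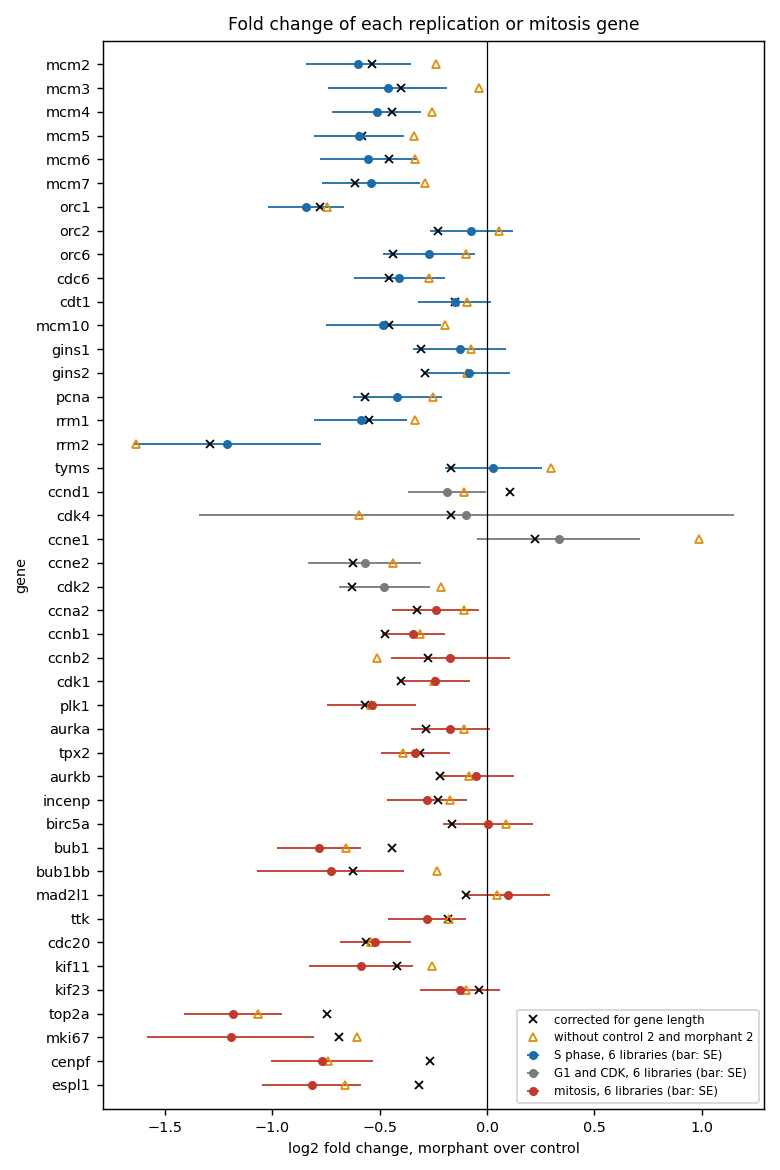
Log2 fold change, morphant over control, of each gene (filled circle, bar 1 SE, 6 libraries), after correction for gene length (cross) and without control 2 and morphant 2 (open triangle). Most circles lie left of 0; for mki67, top2a, cenpf and espl1 the cross lies well to the right of the circle, and for the Mcm subunits the triangle does.

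S phase and mitosis genes were set against each other as lists. Of 18 S phase genes 17 had a negative log2 fold change (median -0.47), 8 (44.4%) were lower at an unadjusted edgeR p under 0.05 and 9 had no overlap between groups. Of 21 mitosis genes 19 were negative (median -0.33), 9 (42.9%) were lower at that p and 11 had no overlap. Over all genes 9.46% were lower at that p, and in 11.9% every morphant lay below every control. The medians differed by -0.14 (S phase minus mitosis). Averaged per library over the genes of each list, as log2(CPM + 0.5), S phase genes stood at 6.26, 6.02 and 6.24 in morphants 1 to 3, against 6.40, 6.79 and 6.64 in controls 1 to 3. Mitosis genes stood at 5.97, 6.02 and 5.99 in morphants 1 to 3, against 6.18, 6.58 and 6.46 in controls 1 to 3. On both lists all morphants were below all controls, and control 1 was the control nearest to them.

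The distance between the lists within a library was nearly constant in controls and spread more widely in morphants. Morphants 1 and 3 lay above every control and morphant 2 below every control. The S phase mean minus the mitosis mean was 0.29, -0.0098 and 0.25 in morphants 1 to 3, against 0.21, 0.21 and 0.18 in controls 1 to 3. The group means of this distance were 0.18 ± 0.16 in morphants and 0.20 ± 0.018 in controls (SD, n = 3 each), and their difference of -0.025 was smaller than the spread between morphants. Morphant 2 was the lowest morphant for 17 of 18 S phase genes and for 6 of 21 mitosis genes, and the highest morphant for 1 and 10 of them; over all tested genes it was the lowest morphant for 37.4% and the highest for 39.3%. Leaving out control 2 and morphant 2 together brought the medians to -0.24 for S phase and -0.26 for mitosis, with 2 of 18 and 7 of 21 genes lower at an unadjusted p under 0.05 (14% of all genes). Control 2 was the highest library for 15 of 18 S phase genes and 12 of 21 mitosis genes (25.8% of all genes). Where these 2 libraries were the extremes, leaving them out moves a gene toward 0 by construction. With single libraries dropped, the S phase count was 2 without morphant 2, control 2 or control 3, where 2 of 18 is 11.1% and the share of all genes was 10.2%, 9.94% and 8.3%. It was 3 without morphant 1 or morphant 3 and 9 without control 1; the mitosis count was 3 without morphant 1 and 6 to 10 otherwise. The difference of the medians was 0.023 without morphant 2, -0.016 without control 2 and -0.26 without morphant 1. As counted, the distance between the lists thus showed no difference between groups beyond the spread between libraries. After the correction for gene length, described below, the medians still differed by -0.139 (S phase minus mitosis). The distance per library was not computed after that correction, so whether this exceeds the spread between libraries was not tested.

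**Figure D4:**
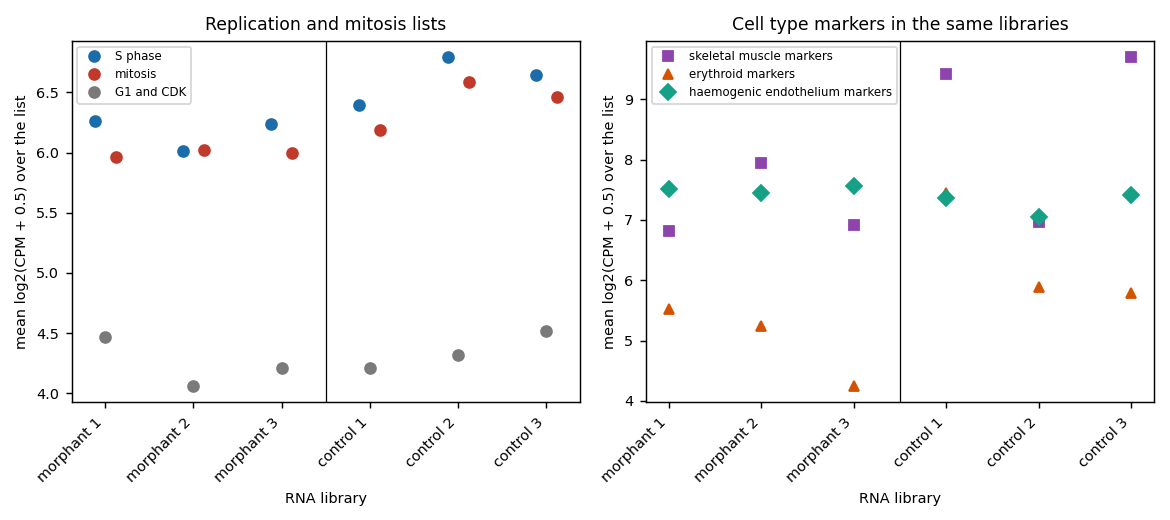
Left, mean log2(CPM + 0.5) of the S phase, mitosis and G1 and CDK lists in each RNA library, morphants left of controls. Right, the same mean for skeletal muscle, erythroid and haemogenic endothelium markers; in morphant 2 the S phase and mitosis means coincide, and control 2 has the highest S phase mean but a muscle mean of 6.97, level with morphants 1 and 3.

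Longer members had lower fold changes in morphants. Length here is the value implied by the authors' count and FPKM of a gene. The 18 S phase genes ran from 0.63 to 2.98 kb and the 21 mitosis genes from 0.67 to 8.92 kb. Across the 44 genes, which share the same 6 libraries and are not independent, Spearman's rho between log2 fold change and length was -0.70, and it was -0.86 over the mitosis genes; over all 18846 tested genes it was -0.28. The 5 mitosis genes over 4 kb were top2a (5.35 kb), mki67 (6.26 kb), cenpf (8.92 kb), espl1 (6.92 kb) and bub1 (4.26 kb), the same 5 with the lowest log2 fold changes of that list. Their median was -0.82, against -0.46 for all tested genes over 4 kb. Under 2 kb the median was -0.27 over 9 S phase genes and -0.17 over 8 mitosis genes, against 0.12 for all genes of that length. From 2 to 4 kb it was -0.55 over 9 S phase genes and -0.43 over 8 mitosis genes, against -0.10 for all genes. For both lists the median was below that of all genes in every length class that the list covers. No S phase gene was over 4 kb. The S phase and mitosis medians differed little within the classes they share, and the values overlapped (under 2 kb, -1.21 to 0.03 for S phase and -0.34 to 0.10 for mitosis genes).

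When each library was corrected for its trend with gene length, all 18 S phase genes and all 21 mitosis genes had a negative log2 fold change, with medians of -0.46 and -0.32, against -0.02 over all genes. At an unadjusted edgeR p under 0.05, 12 of 44 (27.3%) were lower and 0 higher, against 7.32% of all genes lower and 8.42% higher, and 0 passed the adjusted threshold (0.0265% of all genes lower and 0.111% higher). By class these were 6 S phase, 2 G1 and CDK and 4 mitosis genes. The log2 fold changes of the long mitosis genes were nearer to 0, at -0.74 for top2a, -0.69 for mki67, -0.44 for bub1, -0.32 for espl1 and -0.27 for cenpf. Those of short members were further below 0, at -0.57 for pcna, -0.47 for ccnb1, -0.40 for cdk1 and -0.22 for aurkb. rrm2 (-1.29) and orc1 (-0.78) then had the lowest values of the 44. The cause of the length trend was not tested.

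**Figure D5:**
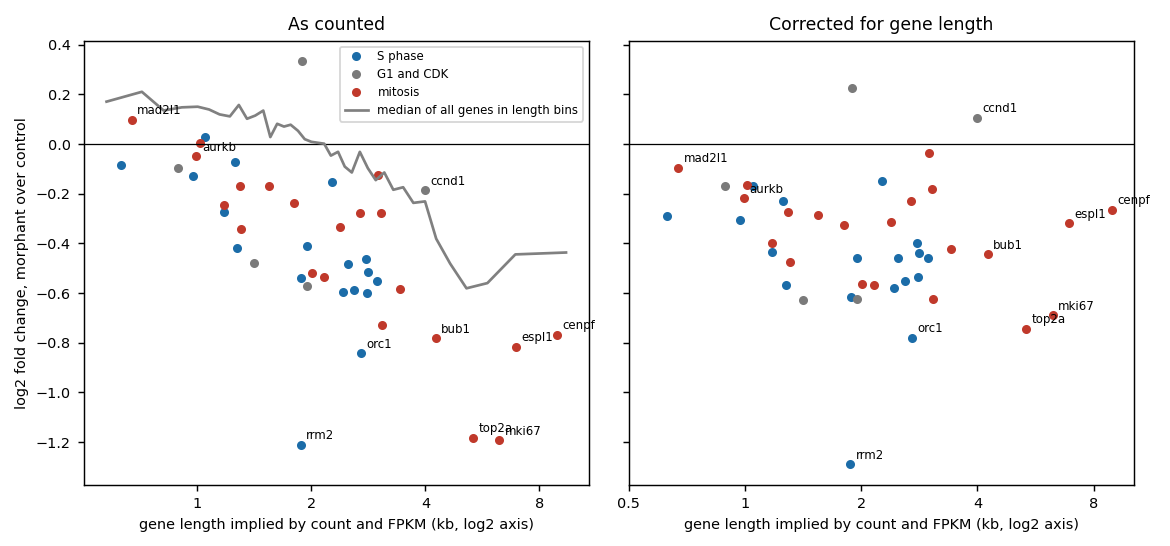
Log2 fold change, morphant over control, of the 44 genes against gene length (kb, log2 axis), as counted (left, with the median of all genes in length bins as a grey line) and after correction for length (right). On the left the points descend with length and lie mostly below the grey line; on the right the descent is weaker and all points but ccnd1 and ccne1 lie below 0.

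The wider pathway was read from lists of further genes that the 44 do not hold. These lists, like those of inhibitors and transcription factors below, were also chosen with earlier results of these data known. Of 40 other replication genes, all tested, 0 were called by edgeR or by DESeq2, and the median log2 fold change was -0.24. With an unadjusted edgeR p under 0.05, 10 (25%) were lower and 0 higher, against 9.46% and 7.58% of all genes. The 4 named by the selection rule follow. dut, which removes dUTP, averaged 70.7 ± 6.57 CPM in morphants and 111 ± 24.9 CPM in controls (SD, n = 3 each). lig1, the ligase that joins Okazaki fragments, averaged 34.2 ± 4.58 CPM in morphants and 54.8 ± 12.2 CPM in controls (SD, n = 3 each). pola1, the catalytic subunit of the priming polymerase, averaged 16.4 ± 3.33 CPM in morphants and 34.9 ± 17.1 CPM in controls (SD, n = 3 each). chaf1b, a histone chaperone at the fork, averaged 53.2 ± 3.16 CPM in morphants and 75.5 ± 14.7 CPM in controls (SD, n = 3 each). Their log2 fold changes were -0.65, -0.68, -1.09 and -0.50, with edgeR adjusted p from 0.20 to 0.25, and the groups of each did not overlap. These 4 had the smallest unadjusted p of the list, so separate groups are largely set by that choice. In 14 of 40 (35%) every morphant lay below every control, against 11.9% of all genes. For pola1 the log2 fold change was -0.60 without control 2. Of 49 other mitosis genes 0 were called by edgeR. DESeq2 called 2 of them (4.08%), both lower, against 3.35% of all genes. The median was -0.36, and 16 (32.7%) were lower and 0 higher at an unadjusted edgeR p under 0.05, against 9.46% and 7.58% of all genes. Without control 2 and morphant 2 the shares at that p were 5% of the other replication genes and 16.3% of the other mitosis genes, against 14% of all genes. Single libraries moved both counts. The shares of all genes in these fits are those given above. For the other replication genes, dropping morphant 1 left 0, dropping morphant 3 or control 2 left 3 and dropping morphant 2 left 4. Dropping control 3 left 6, and dropping control 1 gave 13. The 3 of 40 without control 2 was a smaller share than the 9.94% of all genes. For the other mitosis genes, dropping morphant 1 left 6, dropping morphant 2 or control 2 left 8 and dropping morphant 3 left 9. Dropping control 3 left 11, and dropping control 1 gave 18.

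Among those other mitosis genes anln stood out. anln (gene ID 562517), anillin, which builds the contractile ring, read 18.2, 29.2 and 24.7 CPM in morphants 1 to 3, against 79.2, 154 and 82.6 CPM in controls 1 to 3. Every control was far above every morphant (log2 fold change -2.13, SE 0.32, edgeR adjusted p = 0.078; DESeq2 adjusted p = 7.4e-07). Its log2 fold change was -1.91 without control 2 and morphant 2, and -1.72 after the correction for length (5 kb). knl1, a kinetochore scaffold, averaged 5.7 ± 1.1 CPM in morphants and 19.2 ± 13.8 CPM in controls (SD, n = 3 each), with control 2 far above the other controls. smc4, a condensin subunit, averaged 114 ± 8.06 CPM in morphants and 184 ± 45.1 CPM in controls (SD, n = 3 each), and dlgap5, a spindle protein whose counts were not all whole, 61.3 ± 3.76 CPM in morphants and 88.2 ± 5.77 CPM in controls (SD, n = 3 each). The edgeR adjusted p of these 3 lay between 0.19 and 0.20.

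Inhibitors of the cycle were mostly higher in the same morphant libraries. Of 18 tested, edgeR called 1 higher and 0 lower, 9 (50%) were higher and 1 lower at an unadjusted p under 0.05, and the median log2 fold change was 0.55. DESeq2 called 6 higher and 0 lower, against 3.16% and 3.35% of all genes (0.0531% and 0.0106% with edgeR). Over all genes 7.58% were higher and 9.46% lower at that p. cdkn1a (gene ID 100151416), p21, which inhibits Cdk2 complexes and binds PCNA, rose in morphants and read 116, 95.9 and 106 CPM in morphants 1 to 3, against 14.9, 22.3 and 21.9 CPM in controls 1 to 3 (log2 fold change 2.42, SE 0.22, edgeR adjusted p = 0.02). It did not pass the adjusted threshold without morphant 1, morphant 3, control 1 or control 3, with log2 fold changes from 2.26 to 2.51 and edgeR adjusted p from 0.067 to 0.17. ccng1, cyclin G1, averaged 1487 ± 129 CPM in morphants and 412 ± 113 CPM in controls (SD, n = 3 each; log2 fold change 1.85, SE 0.25, edgeR adjusted p = 0.069). The growth arrest gene gadd45aa averaged 41.7 ± 17.7 CPM in morphants and 5.11 ± 1.24 CPM in controls (SD, n = 3 each; edgeR adjusted p = 0.062), and gadd45ab averaged 205 ± 32.5 CPM in morphants and 109 ± 11.4 CPM in controls (SD, n = 3 each; edgeR adjusted p = 0.12). In each of these 4 genes all morphants lay above all controls. They had the smallest unadjusted p of their list, so separate groups are largely set by that choice. Over the list this held for 10 of 18 (55.6%), against 12.4% of all genes.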

How the data were processed

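Each gene and RNA library has 3 deposited values per the file headers: TPM, FPKM and an estimated count. The submitters' processing notes name GRCz11, HTSeq 0.12.4, HISAT2 2.2.1 and DESeq2 1.30.1 with no roles; the annotation and strand setting are not given. The deposited estimated counts of 13.5 to 15.1% of genes per library were not whole, rrm2 and gins1 among the members, and were rounded. The deposited TPM values compare genes; the deposited FPKM values served to derive gene length. The methylation table was not used here, since its regions carry no gene names and no annotation of its build was at hand; promoter motifs were not analysed here.

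Genes were kept by filterByExpr (18846), scaled by TMM (factors 0.932 to 1.11) and tested with edgeR 4.0.16 (quasi-likelihood F-test, group only, two-sided, Benjamini-Hochberg over all tested genes, R 4.3.3). CPM values are TMM-normalised, and the SE comes from the F statistic. Alternatives were DESeq2 1.42.0, limma-voom (limma 3.58.1), upper-quartile or RLE scaling, no filter or at least 5 CPM in 3 libraries, a replicate block, leaving out libraries, an adjusted p under 0.10, TPM ratios (pseudocount 0.1) and a loess length correction (span 0.5) as an offset. The fits were tested on simulated counts. The members and lists were chosen with earlier results of these data known. Values per library are given for the 3 highest members of each class by TPM, up to 8 per direction at an unadjusted p under 0.05, 6 proliferation markers, and up to 4 genes of each other list plus cdkn1a. List genes missing by name were matched by gene ID through a RefSeq table of GRCz12tu; cep55 was not found, and cdkn2d and wee2 were filtered out.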

Additional observations from a re-analysis of the deposited data

How the results depend on the processing

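The count of genes called over all genes was 12 with edgeR and 1226 with DESeq2, 37 without a filter, 26 with the length correction, 1359 without control 2 and morphant 2, and 0 to 77 with single libraries left out. Of the 44 genes edgeR called 0, DESeq2 called 4, and 2 were called without control 2 and morphant 2; at an adjusted p under 0.10, and with each single library left out, it was 0. Members lower at an unadjusted p numbered 17, with 9 without control 2 and morphant 2 and 7 to 20 with single libraries left out. For S phase genes it was 8, then 2 and 2 to 9, and for mitosis genes 9, with 4 under the length correction and 3 to 10 with single libraries left out. The S phase median of -0.47 was -0.24 without control 2 and morphant 2 and ran from -0.61 to -0.32 with single libraries left out. The S phase minus mitosis difference of -0.14 was 0.013 without those 2 and ran from -0.26 to 0.023 with single libraries left out. The cause of these shifts was not tested. Deviations of same-numbered libraries from their group means had correlations of 0.035, -0.082 and -0.15 over all tested genes. With 3 libraries in each group, such correlations cannot show whether same-numbered libraries were prepared as pairs, and the labels do not say. With the replicate block 0 genes were called over all genes, with or without the length correction. In these fits 9 members (5 with the correction) were lower at an unadjusted p, against 6.65% (4.91%) of all genes. Of these members 2 (2) were S phase genes and 7 (3) mitosis genes. Among the genes with values per library, signs turned for ccnd1 (0.11 with the length correction, 0.10 with the block as well), mad2l1 (-0.096 and -0.079 likewise, -0.0145 to 0.28 with single libraries left out, negative without control 2) and aurkb (-0.13 to 0.094 with single libraries left out, positive without control 3). Of the other members, tyms (-0.17) and birc5a (-0.16) turned with the length correction, orc2 without control 2 (0.018) and without control 2 and morphant 2 (0.054), cdk4 with limma-voom (1.84) and the block (0.95), and birc5a also without control 2 (-0.053), with limma-voom and with the block. Further signs turned in other fits. All 18 S phase genes, tyms among them, were negative without morphant 3 and with the stricter filter. Of the mitosis genes, 2 were positive in the main fit, 4 without control 3, and 1 with upper-quartile scaling or the stricter filter. The stricter filter left 1 named gene, e2f1, without a value. Depth limited cdk4, which had 0 to 59 reads a library.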

Other observations

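Transcription factors that turn the cycle genes on and off did not share a direction. Of 21 listed genes (E2F and DP factors, retinoblastoma proteins, FoxM1 and the MYB and LIN subunits of related complexes), all tested, edgeR called 0. DESeq2 called 2 (9.52%), both lower, against 3.35% of all genes. The median log2 fold change was 0.012, and 5 were lower and 2 higher at an unadjusted edgeR p under 0.05 (9.46% and 7.58% of all genes). e2f1 (gene ID 101885420), an activator of S phase genes, read 1.96, 2.96 and 2.23 CPM in morphants 1 to 3, against 6.2, 29.1 and 3.42 CPM in controls 1 to 3, so that control 2 alone held most of the control signal (log2 fold change -2.44, SE 0.77, edgeR adjusted p = 0.21). Without control 2 its log2 fold change was -1.01. The gene with ID 568846, listed under a clone name and matched to e2f2 by gene ID, averaged 10.2 ± 3.91 CPM in morphants and 29.4 ± 6.78 CPM in controls (SD, n = 3 each; edgeR adjusted p = 0.13), and e2f4, a partner of the repressive complexes, 21.4 ± 4.64 CPM in morphants and 35.7 ± 7.96 CPM in controls (SD, n = 3 each; edgeR adjusted p = 0.22). The gene with ID 560495, matched to the repressor e2f6 in the same way, averaged 54.4 ± 4.47 CPM in morphants and 38.2 ± 3.02 CPM in controls (SD, n = 3 each; edgeR adjusted p = 0.22). In each of these 4 genes the groups did not overlap. They had the smallest unadjusted p of the list, so separate groups are largely set by that choice. Of the 21 genes, 5 (23.8%) had every morphant below every control and 4 (19%) every morphant above. Over all genes these shares were 11.9% and 12.4%.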
